A study of Homo sapiens with 20 samples.

Results

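The genes described here encode the machinery that degrades mRNA in the cytoplasm, and the values are the levels of their own mRNAs. The set was named by gene symbol, without use of any measured value, and all 33 genes were found by Ensembl identifier among the 60624 genes listed in the series. It comprised 13 genes of the CCR4-NOT deadenylase and its adaptors, 3 genes of other deadenylases, 8 decapping genes, 2 exonuclease genes and 7 genes of nonsense-mediated decay. All 33 passed the filter of a mean of at least 1 TPM or CPM in both stages.

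RNA-seq was made from human pluripotent stem cells of the MEL1 line, an embryonic stem cell line that carries a GFP reporter in *INS*, and from A5-KO cells, derived from it by CRISPR-Cpf1 cutting in the first exon of *ALKBH5*, the gene of an RNA m6A demethylase. Both were differentiated to pancreatic progenitors (PPs, last medium day 14 in the labels) or on to human islet-like organoids (hILOs, last medium day 22 in the labels). The paper's hILO protocol runs past that day in a further medium, so the day of sampling is unclear. The 4 hILO libraries were 2 WT and 2 A5-KO, with no drug. The 16 PP libraries were 2 for each genotype after 0, 1, 2 or 3 h in actinomycin D (Act D) at 1 μg/ml. Act D blocks transcription, so mRNA that is lost is not replaced. The PP values are CPM, a share of each library total. A change under Act D is therefore relative to the other mRNAs and can also be a rise. A5-KO cells came from picked colonies of an edited line, and nothing in the labels says that replicates came from separate differentiations, so the p-values below measure the spread between these libraries only.

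A cytoplasmic mRNA is usually degraded from its poly(A) tail. PAN2-PAN3 and then CCR4-NOT shorten the tail, the DCP1-DCP2 enzyme removes the cap with the help of EDC, LSM and PATL proteins and the helicase DDX6, and XRN1 digests the body from the 5′ end. Nonsense-mediated decay uses the UPF and SMG proteins to send mRNAs with an early stop codon, and many normal ones, to the same enzymes. Modification by m6A can recruit CCR4-NOT through reader proteins, and mRNAs of regulators are themselves often short-lived.

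The knockout was visible in every library. *ALKBH5* stood at 78.8 and 81.9 TPM in WT hILOs and at 4.16 and 3.42 TPM in A5-KO hILOs, and at 149 and 172 CPM in WT PPs and 19.1 and 18.8 CPM in A5-KO PPs at 0 h. The markers fitted the labelled stages in part. The PP markers *PDX1*, *NKX6-1* and *SOX9* lay between 153 and 367 CPM in PPs at 0 h, *INS* was at 0 there, and *INS* was 13033 and 12978 TPM in WT against 7605 and 7606 TPM in A5-KO hILOs. Markers of other cell types differed between the genotypes. The summed level of 6 liver genes was 19225 to 19583 TPM in WT against 34405 to 34719 TPM in A5-KO hILOs. Of these 6, 4 were higher in A5-KO hILOs with no overlap and *APOA1* overlapped. *FGB* was lower, at 1362 and 1394 TPM in WT against 737 and 748 TPM in A5-KO. In PPs at 0 h the liver sum was 767 to 768 CPM in WT against 1619 to 1629 CPM in A5-KO, with 5 genes higher and *APOA2* overlapping. In PPs at 0 h 4 pluripotency genes summed to 121 to 124 CPM in WT against 234 to 248 CPM in A5-KO. That sum was nearly all *LIN28A*, at 119 and 115 CPM against 246 and 230 CPM. *DPPA4* was lower in A5-KO with no overlap (4.97 and 5.89 against 2.72 and 4.31 CPM), and *POU5F1* and *NANOG* were at or near 0 in both. At 0 h 6 mesenchyme genes summed to 111 to 118 CPM in WT against 196 to 201 CPM in A5-KO. Of these, 4 were higher and 2, *COL1A2* and *DCN*, lower in A5-KO with no overlap. In hILOs the mesenchyme sum was 6.56 to 13.7 TPM against 41.1 to 47.4 TPM, with 5 genes higher and *COL1A1* overlapping. The summed level of 9 islet genes was 34684 to 37014 TPM in WT against 26653 to 27871 TPM in A5-KO hILOs. Of these 9, 6 were lower and 2, *NEUROD1* and *ISL1*, higher in A5-KO with no overlap, and *CHGB* overlapped. The part of these differences in the results below was not tested, and in bulk RNA fewer cells of a type and less RNA per cell cannot be told apart. PP libraries held between 30516384 and 35206514 reads, while the read depth of hILO libraries is unknown from TPM.

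In hILOs, both subunits of one deadenylase, the PAN2-PAN3 complex, were lower in A5-KO, and the other 31 genes passed no call. *PAN3*, the regulatory subunit that binds the poly(A)-binding protein (chromosome 13, 28138506 to 28295335, plus strand, GRCh38), stood at 6.69 and 9.44 TPM in WT against 1.90 and 1.86 TPM in A5-KO. *PAN2*, the catalytic subunit (chromosome 12, 56316223 to 56334053, minus strand), stood at 14.5 and 17.3 TPM in WT against 8.94 and 6.75 TPM in A5-KO. For both genes every A5-KO library lay below every WT library. Both were called on these same libraries, so that order is no further evidence. On the log2(TPM + 1) scale *PAN3* fell by 1.63 ± 0.21 (SE, adjusted p = 0.020) and *PAN2* fell by 0.94 ± 0.17 (adjusted p = 0.043, limma). A call needed an adjusted p below 0.05 and a 1.5-fold change.

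Thus 2 of 33 genes were lower and none was higher in A5-KO hILOs, against 4.09% of all 17300 genes tested called lower and 2.7% called higher. By unadjusted p below 0.05, 6 of the 33 were lower and 2 higher, against 18.7% and 12.2% of all genes. The median change of the 33 genes was −0.08 and that of all genes −0.06. Both calls were lost in some settings. With all genes kept in the fit, neither passed (adjusted p = 0.084 for *PAN3* and 0.135 for *PAN2*), and neither passed when any one of the 4 libraries was left out. Exons of *PAN2* overlap those of the antisense gene *CNPY2-AS1* over 19.5% of their length, and whether counting used strand is not given in the sources used here.

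**Figure D1:**
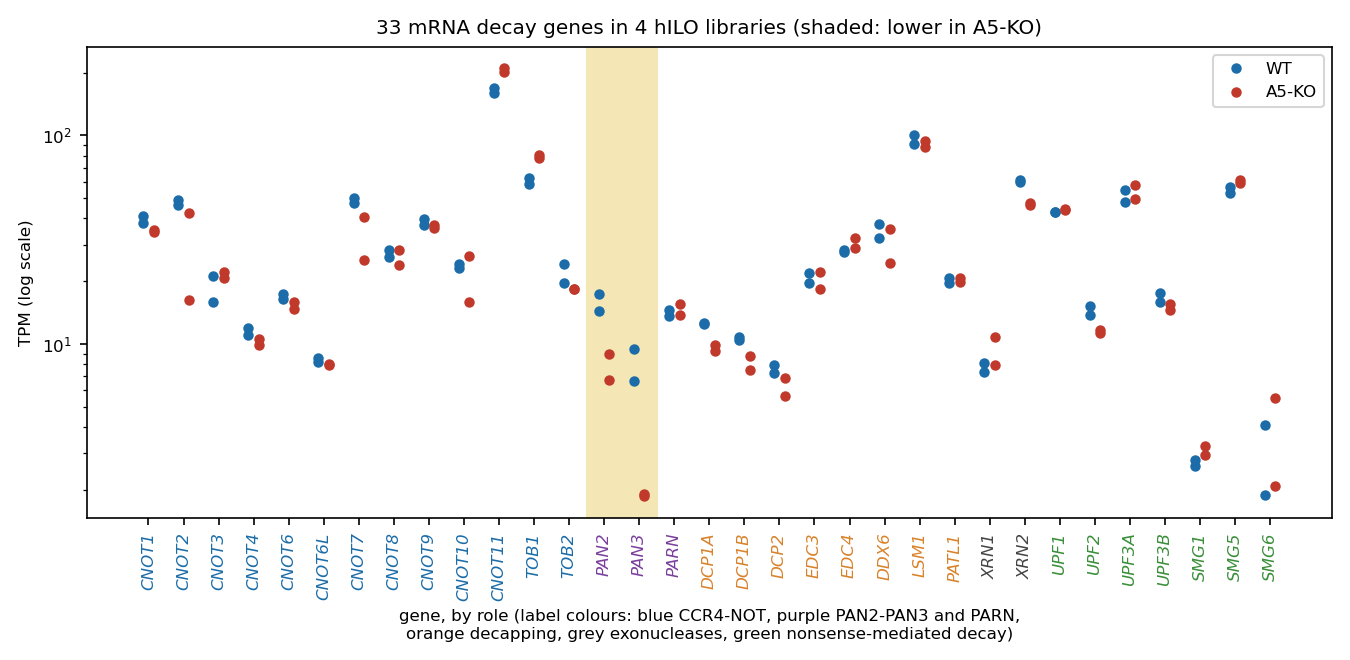
Level of each of the 33 genes in 4 hILO libraries, in TPM on a log axis, with 1 point per library, WT in blue and A5-KO in red, and genes grouped by role. The shaded genes are *PAN2* and *PAN3*, whose A5-KO points lie below their WT points, while *CNOT2*, *CNOT7*, *CNOT10*, *DDX6* and *SMG6* show A5-KO libraries far apart from each other.

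A further 3 genes passed the adjusted p but changed by less than 1.5-fold. With *PAN2* and *PAN3*, 3 genes were then lower and 2 higher by adjusted p alone, against 7.32% and 5.27% of all genes, near the background. *CNOT11*, a scaffold subunit of CCR4-NOT, was at 160 and 168 TPM in WT against 202 and 209 TPM in A5-KO (log2 change 0.33 ± 0.05 SE, adjusted p = 0.024, limma). *TOB1*, an antiproliferative adaptor that brings CCR4-NOT to the poly(A)-binding protein, was at 58.2 and 62.7 TPM in WT against 80.7 and 78.1 TPM in A5-KO (0.39 ± 0.06 SE, adjusted p = 0.030). *XRN2*, the 5′ exonuclease of the nucleus, was at 59.6 and 61.2 TPM in WT against 47.7 and 46.4 TPM in A5-KO (−0.35 ± 0.05 SE, adjusted p = 0.028). In each of the 3 genes the A5-KO libraries lay wholly on one side of the WT libraries. They were picked by p from the same libraries, so that order is no further evidence. The share of all genes with such an order in hILOs was not computed.

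The remaining genes were close between the genotypes or scattered within A5-KO. *CNOT2*, a subunit that joins the NOT module, was at 46.5 and 49.1 TPM in WT against 16.4 and 42.3 TPM in A5-KO, so its log2 change of −0.83 ± 0.46 (SE) was not called (adjusted p = 0.30). Its adjusted p was 0.038 without A5-KO replicate 2, and the change was then −1.49. *CNOT7*, a catalytic deadenylase, was at 47.7 and 50.1 TPM in WT against 40.8 and 25.3 TPM in A5-KO (adjusted p = 0.19). *SMG6*, the endonuclease of nonsense-mediated decay, spread from 1.89 to 4.09 TPM within WT, and 22.9% of its exon length overlaps *HIC1*. *UPF1*, the central helicase of that pathway, was at 42.8 and 42.7 TPM in WT against 44.0 and 44.2 TPM in A5-KO.

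TPM is scaled to transcript length, so the order of the genes can be read in hILOs. In WT *CNOT11* was highest at 160 and 168 TPM, followed by *LSM1*, a subunit of the ring that binds deadenylated mRNA, at 100.7 and 90.6 TPM. The lowest were *SMG1*, the kinase of UPF1, at 2.61 and 2.78 TPM and *SMG6*. *SMG1* has 7 named pseudogenes, *UPF3A* has 3, *CNOT7*, *DDX6* and *LSM1* have 2 each, and *CNOT4*, *CNOT6L* and *TOB2* have 1 each. Reads of these genes may have been split. An antisense gene also overlaps 18.8% of the exon length of *CNOT7*. Among the catalytic deadenylases *CNOT7* (47.7 and 50.1 TPM) and *CNOT8* (26.3 and 28.3 TPM) stood above *CNOT6* (16.4 and 17.3 TPM) and its paralogue *CNOT6L* (8.62 and 8.25 TPM), with no overlap between neighbours in that order.

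In PPs before Act D no gene of the set was called. That is 0 of 33 at 0 h, near the 2.7% of 13911 genes called in either direction. By unadjusted p below 0.05, 2 were lower and 2 were higher with limma, against 8.29% and 11% of all genes, and edgeR and DESeq2 on the recovered reads, with 6 and 5 genes at that level, called none either. The median change was −0.01 for the 33 genes and 0.03 for all genes. *PAN3* was at 39.4 and 35.6 CPM in WT against 42.6 and 36.7 CPM in A5-KO, a log2 change of 0.07 ± 0.11 (SE, adjusted p = 0.77), and *PAN2* was at 26.0 and 29.6 CPM against 24.7 and 25.2 CPM (−0.15 ± 0.12 SE, adjusted p = 0.54). The hILO and PP tables were normalised separately, and whether the genotype effect on *PAN3* differs between stages was not tested. The widest shifts among genes over 2 CPM were those of *CNOT10*, a scaffold partner of *CNOT11* (0.36 ± 0.14 SE, adjusted p = 0.20), and *XRN1*, the main cytoplasmic 5′ exonuclease (−0.35 ± 0.13 SE, adjusted p = 0.18).

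The first hour of Act D lowered a part of the set in both genotypes. In WT 7 of 33 genes were called lower at 1 h than at 0 h, against 15.4% of 13620 genes, and none higher, against 0.301%. In A5-KO 11 were called lower, against 17.1%, and none higher, against 1.37%. The 7 of WT were *CNOT2*, *CNOT4*, *CNOT9*, *TOB1*, *TOB2*, *DCP1A* and *DDX6*. The same 7 were among the 11 of A5-KO, which also held *PAN3*, *PATL1*, *UPF2* and *SMG1*. Scaling by the median of ratios shifted the all-gene median of the first hour in A5-KO from −0.15 to 0.01 and left 6 of the 11 called, so these counts are relative to the library total.

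*CNOT4*, an E3 ubiquitin ligase that associates with the complex, fell fastest in the first hour. It stood at 25.9 and 19.6 CPM at 0 h and 6.72 and 7.48 CPM at 1 h in WT, and at 19.6 and 18.0 CPM and then 6.67 and 5.73 CPM in A5-KO. On the log2(CPM + 0.1) scale it fell by 1.66 ± 0.25 (SE, adjusted p = 0.00025, limma) in WT and by 1.59 ± 0.25 (adjusted p = 0.00033) in A5-KO. *TOB2*, the paralogue of *TOB1*, fell by 1.61 ± 0.26 (adjusted p = 0.00034) and by 1.30 ± 0.26 (adjusted p = 0.0014). *DDX6*, the helicase that links CCR4-NOT to decapping, fell by 1.06 ± 0.15 (adjusted p = 0.00017) and by 1.12 ± 0.15 (adjusted p = 0.00013).

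No gene of the set was called for a difference between the genotypes in this first hour, against 0.25% of all genes. By unadjusted p below 0.05 the count was 2 of 33 with limma, against 8.83% of all genes, and 2 with edgeR, and edgeR called none. For *CNOT2* the difference was −0.07 ± 0.22 (SE, adjusted p = 0.96) and for *TOB1* 0.15 ± 0.25 (SE, adjusted p = 0.91), so differences of the size of these errors could not be seen.

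**Figure D2:**
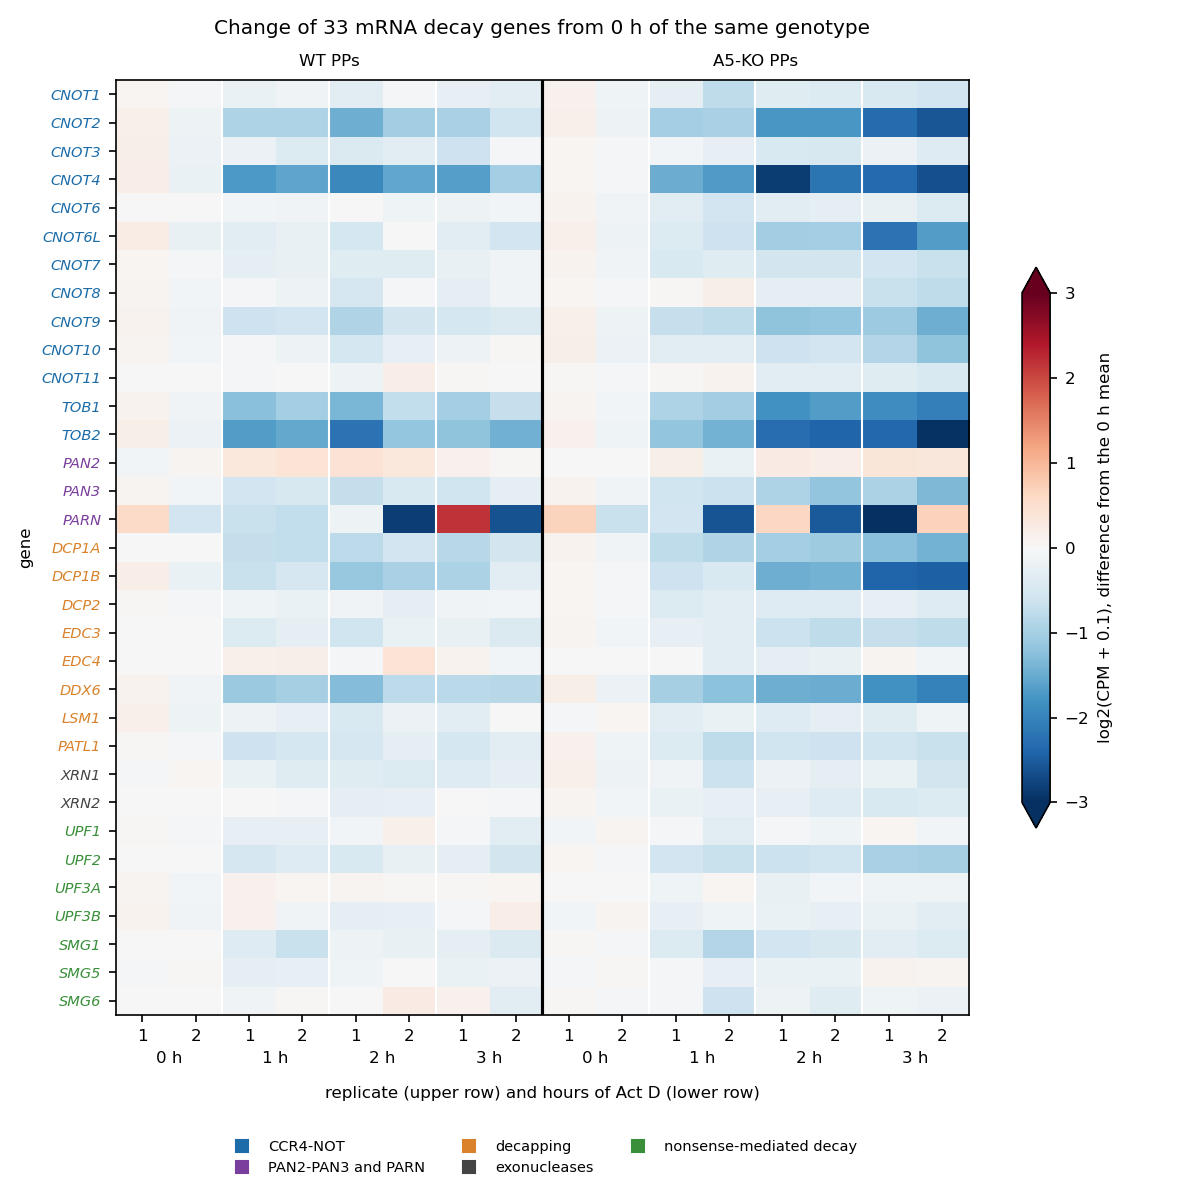
Change of each of the 33 genes (rows, label colours by role) in each of the 16 PP libraries (columns, by genotype, hours of Act D and replicate), as the difference in log2(CPM + 0.1) from the 0 h mean of the same genotype, with colours ending at 3 in either direction. *CNOT2*, *CNOT4*, *TOB1*, *TOB2*, *DCP1B* and *DDX6* are blue in both genotypes at 1 h and later and darker in A5-KO than in WT at 3 h, the rows of nonsense-mediated decay stay pale apart from *UPF2* and *SMG1*, and *PARN* varies between replicates.

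The genotypes parted after the first hour. *CNOT2* in WT stood at 113 and 92.1 CPM at 0 h, 53.2 and 53.8 CPM at 1 h, 36.7 and 49.5 CPM at 2 h and 51.6 and 67.5 CPM at 3 h. In A5-KO it stood at 118 and 94.4, then 51.9 and 53.7, then 31.2 and 31.3, and last 21.3 and 17.9 CPM. The genotypes overlapped at 0 and 1 h, and at 2 and 3 h every A5-KO library lay below every WT library. Over all 13620 genes, 37.5% had that order at 2 h and 46% at 3 h, against 25 and 23 of the 33 genes.

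*CNOT6L*, a catalytic deadenylase, showed the same order. In WT it stood at 15.9 and 11.5 CPM at 0 h, 10.6 and 11.6 CPM at 1 h, 9.44 and 13.6 CPM at 2 h and 10.6 and 9.10 CPM at 3 h. In A5-KO it fell from 16.1 and 12.9 CPM through 10.8 and 9.38 CPM and then 6.95 and 7.08 CPM to 3.04 and 4.43 CPM. The 6 WT libraries of 1 to 3 h lay within 9.10 to 13.6 CPM, whereas each later time in A5-KO lay below the one before.

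*DCP1B*, an activator of the decapping enzyme, stood in WT at 18.5 and 14.1 CPM at 0 h, 10.2 and 11.4 CPM at 1 h, 7.25 and 8.20 CPM at 2 h and 8.38 and 12.7 CPM at 3 h. In A5-KO it stood at 15.8 and 14.4, then 9.69 and 11.0, then 5.37 and 5.54, and last 2.76 and 2.69 CPM. Its A5-KO libraries lay below the WT libraries at 2 and 3 h and overlapped them at 0 and 1 h.

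The adaptors *TOB1* and *TOB2* and the helicase *DDX6* were also lower in A5-KO at the later times. *TOB2* in WT stood at 116 and 90.5 CPM, then 31.9 and 35.3, then 21.9 and 45.7, and last 44.3 and 37.4 CPM, and in A5-KO at 95.4 and 80.1, 38.1 and 32.8, 17.9 and 16.5, and 16.9 and 11.0 CPM. *TOB1* in WT stood at 49.3 and 43.1, 19.2 and 22.8, 17.6 and 27.6, and 22.8 and 28.3 CPM, and in A5-KO at 51.4 and 45.3, 25.3 and 23.4, 13.6 and 14.9, and 13.1 and 11.6 CPM. *DDX6* in WT stood at 136 and 116, 57.3 and 62.6, 50.7 and 73.0, and 71.4 and 70.0 CPM, and in A5-KO at 140 and 110, 62.0 and 52.7, 44.7 and 44.3, and 35.1 and 30.1 CPM. In all 3 genes the A5-KO libraries lay below the WT libraries at 2 and 3 h, as in 37.5% and 46% of all genes. At 1 h the A5-KO libraries of *TOB1* lay above those of WT, as in 32.6% of all genes. Their slope differences, −0.50 ± 0.21 for *TOB2*, −0.42 ± 0.15 for *TOB1* and −0.37 ± 0.14 for *DDX6* (SE per hour, limma adjusted p = 0.16, 0.11 and 0.12), were not called.

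**Figure D3:**
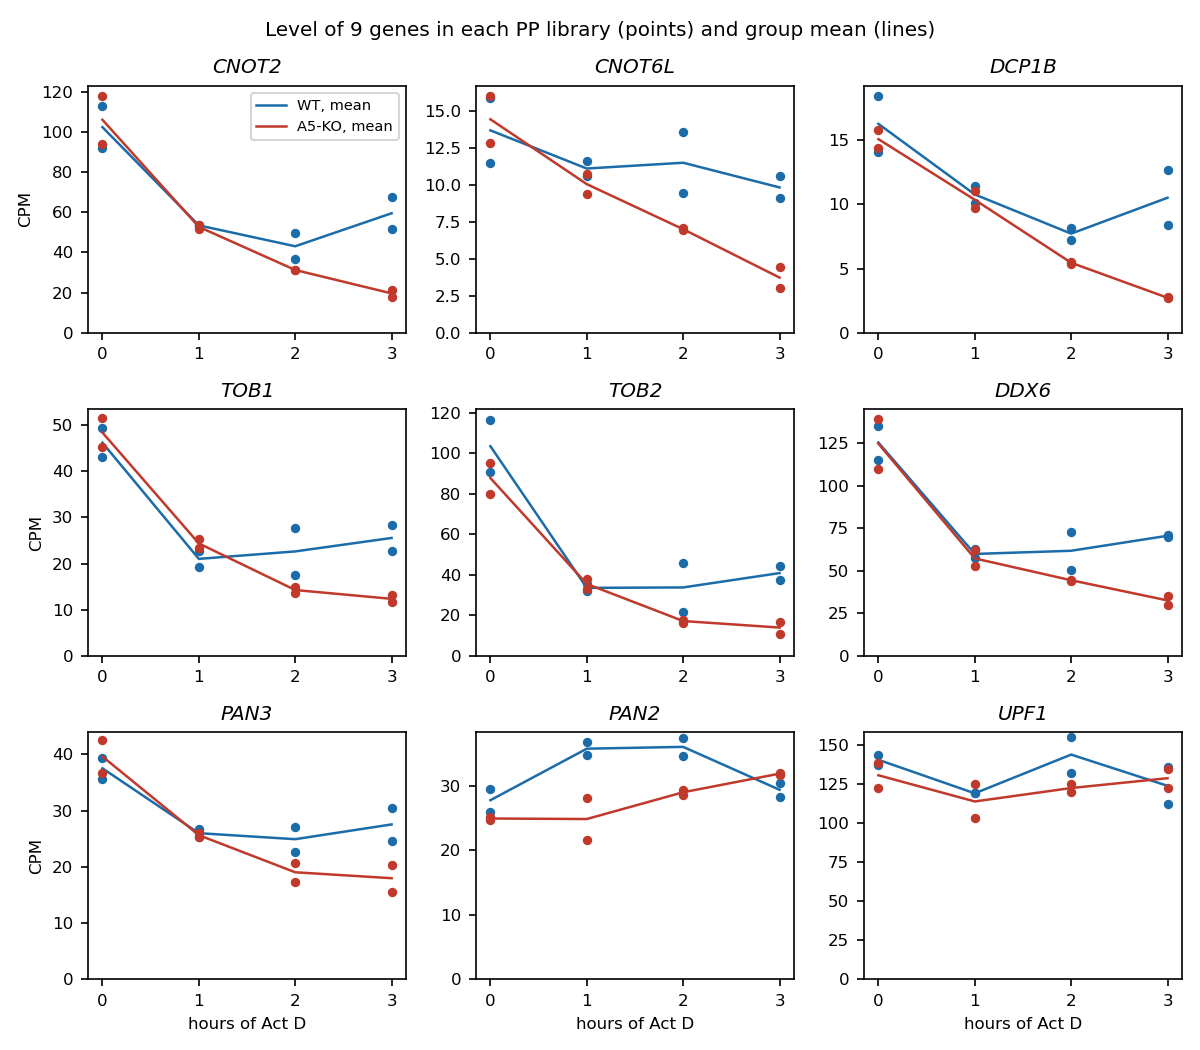
Level of 9 genes in PPs (CPM, linear axis from 0) against hours of Act D, with 1 point per library and lines through the mean of the 2 libraries of each group, WT in blue and A5-KO in red. For *CNOT2*, *CNOT6L*, *DCP1B*, *TOB1*, *TOB2*, *DDX6* and *PAN3* the red points at 3 h lie below the blue ones, while *PAN2* and *UPF1* show no such fall.

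Straight lines through all 4 times put this as a slope per hour on the log2(CPM + 0.1) scale. In A5-KO 19 of 33 slopes were called below 0 and none above it, against 37.1% and 7.44% of 13620 genes. The median slope was −0.19 for the 33 genes and −0.08 for all genes. The 19 comprised 11 of 13 CCR4-NOT genes, 5 of 8 decapping genes, *PAN3*, *XRN2* and, of 7 genes of nonsense-mediated decay, *UPF2*. With median-of-ratios scaling 15 were below 0 and 2, *PAN2* and *SMG5*, were above it, and the all-gene calls went from 5054 lower and 1013 higher to 3636 lower and 3186 higher. The split therefore depends on the scaling, which moved the all-gene median slope from −0.08 to 0.02. On the library-total scale *PAN2* was called above 0 with the 0 and 3 h libraries alone (0.12 per hour, adjusted p = 0.017, limma) and without WT 0 h replicate 1 or WT 3 h replicate 2, and *SMG5* was not.

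The steepest A5-KO slopes were those of 7 genes. *TOB2* fell by 0.90 ± 0.15 per hour (SE, adjusted p = 0.00012, limma), *CNOT4* by 0.84 ± 0.16 (adjusted p = 0.00057), *DCP1B* by 0.82 ± 0.09 (adjusted p = 9.8e-06) and *CNOT2* by 0.80 ± 0.09 (adjusted p = 1.3e-05). *TOB1* fell by 0.67 ± 0.10, *CNOT6L* by 0.63 ± 0.07 and *DDX6* by 0.61 ± 0.10 per hour. *CNOT9*, a CCR4-NOT subunit that docks RNA-binding proteins, and *DCP1A*, the paralogue of *DCP1B*, followed at −0.43 ± 0.07 and −0.42 ± 0.07. The scaffold *CNOT1* had only −0.14 ± 0.05 (adjusted p = 0.033), and it was −0.04 with median-of-ratios scaling (adjusted p = 0.46).

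The other CCR4-NOT genes fell less. *CNOT9* in A5-KO went from 96.0 and 76.7 CPM at 0 h to 40.4 and 31.0 CPM at 3 h, and in WT from 84.7 and 72.6 CPM to 54.6 and 58.0 CPM. *CNOT10* went from 36.3 and 28.4 CPM to 17.5 and 13.8 CPM in A5-KO (slope −0.34 ± 0.06 SE, adjusted p = 0.00016), while in WT it stood at 26.5 and 23.3 CPM at 0 h and 22.4 and 25.4 CPM at 3 h. So *CNOT10* fell in A5-KO and overlapped itself in WT, with a slope difference of −0.29 ± 0.08 that just missed the threshold (adjusted p = 0.056).

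The deadenylases *CNOT7* and *CNOT8* fell by 0.20 ± 0.04 and 0.25 ± 0.05 per hour in A5-KO (SE, adjusted p = 0.0009 and 0.00094, limma). *CNOT7* was at 176 and 153 CPM at 0 h and 110 and 103 CPM at 3 h there, and at 157 and 143 CPM and then 129 and 139 CPM in WT. *CNOT8* was at 44.5 and 41.6 CPM and then 27.0 and 25.5 CPM in A5-KO, and at 47.9 and 42.9 CPM and then 37.2 and 42.3 CPM in WT. In both genes no library of 3 h lay above one of 0 h in either genotype. Over all genes, 40.7% had that order in WT and 55.3% in A5-KO. The WT slopes, −0.06 ± 0.04 for *CNOT7* and −0.07 ± 0.05 for *CNOT8* (SE, adjusted p = 0.54 and 0.53, limma), were not called.

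*CNOT11* was at 385 and 372 CPM at 0 h and 296 and 276 CPM at 3 h in A5-KO, and at 321 and 319 CPM and then 326 and 320 CPM in WT. *CNOT1* was at 216 and 179 CPM and then 142 and 132 CPM in A5-KO, and at 212 and 197 CPM and then 173 and 165 CPM in WT. *CNOT6*, the paralogue of *CNOT6L*, had shallow slopes, from 94.4 and 81.1 CPM to 75.6 and 66.2 CPM in A5-KO (slope −0.08 ± 0.04 SE, adjusted p = 0.15) and from 86.7 and 84.2 CPM to 77.1 and 80.2 CPM in WT. *CNOT3*, which forms the NOT module with *CNOT2*, lay between 6.49 and 11.6 CPM in all 16 libraries and its slopes of −0.10 ± 0.07 in WT and −0.11 ± 0.07 in A5-KO were not called.

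Of the decapping genes, *DCP1A* went from 71.7 and 61.4 CPM to 27.8 and 24.8 CPM in A5-KO and from 78.5 and 77.1 CPM to 43.9 and 53.4 CPM in WT. *EDC3*, an enhancer of decapping, went from 51.7 and 45.7 CPM to 30.2 and 28.5 CPM in A5-KO (slope −0.26 ± 0.05 SE, adjusted p = 0.00044) and from 50.6 and 49.2 CPM to 42.9 and 36.8 CPM in WT. *PATL1*, which bridges the LSM ring to the decapping enzyme, went from 68.0 and 57.7 CPM to 41.0 and 39.7 CPM in A5-KO (slope −0.19 ± 0.06 SE, adjusted p = 0.020) and from 65.8 and 63.5 CPM to 45.1 and 51.4 CPM in WT. The 3 genes were lower at 3 h than at 0 h in every library of both genotypes, as were 40.7% of all genes in WT and 55.3% in A5-KO. *LSM1* lay between 7.77 and 11.9 CPM in all 16 libraries and was not called, and 26.1% of its exon length overlaps an antisense gene.

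The A5-KO slopes of *DCP2*, *EDC4* and *LSM1* and of 6 of the 7 genes of nonsense-mediated decay were not called. *DCP2*, the decapping enzyme itself, was at 132 and 121 CPM at 0 h and 106 and 96.4 CPM at 3 h in A5-KO (slope −0.10 ± 0.04 SE, adjusted p = 0.056, limma). *EDC4*, the scaffold of the decapping complex, was at 58.3 and 58.5 CPM at 0 h and 62.0 and 55.1 CPM at 3 h in A5-KO (slope −0.01 ± 0.05 SE), and 21.3% of its exon length overlaps another gene on the same strand. *UPF1* was at 123 and 138 CPM at 0 h and 135 and 123 CPM at 3 h in A5-KO, and its groups overlapped.

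*SMG5*, a phospho-UPF1 adaptor, was at 134 and 141 CPM at 0 h and 149 and 145 CPM at 3 h in A5-KO. *UPF3A*, *UPF3B* and *SMG6* had A5-KO slopes between −0.08 and −0.04, and none was called. *UPF2*, which bridges UPF1 to the exon junction, was the exception in its class, from 47.4 and 43.8 CPM to 23.3 and 22.8 CPM (slope −0.30 ± 0.05 SE, adjusted p = 0.00023). *SMG1* was called in the first hour in A5-KO, from 65.2 and 62.7 CPM to 48.4 and 34.5 CPM (log2 change −0.64 ± 0.13 SE). In WT it went from 67.7 and 68.0 CPM to 51.5 and 42.8 CPM (−0.53 ± 0.13 SE, adjusted p = 0.0085), short of 1.5-fold only.

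The exonucleases were also shallow. *XRN1* had an A5-KO slope of −0.10 ± 0.06 (SE, adjusted p = 0.19) and a WT slope of −0.11 ± 0.06. *XRN2* fell in A5-KO from 159 and 144 CPM to 110 and 114 CPM (slope −0.14 ± 0.03 SE, adjusted p = 0.0029), and that call was lost with median-of-ratios scaling (adjusted p = 0.33).

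*PAN2* and *PAN3* had unlike courses although their proteins act as one complex. *PAN3* went in A5-KO from 42.6 and 36.7 CPM to 20.4 and 15.5 CPM at 3 h, and in WT from 39.4 and 35.6 CPM to 24.6 and 30.4 CPM. *PAN2* in A5-KO was at 24.7 and 25.2 CPM at 0 h and 32.0 and 31.7 CPM at 3 h. Its slope there was 0.13 ± 0.05 (SE, adjusted p = 0.058) and that of *PAN3* was −0.39 ± 0.07 (SE, adjusted p = 0.0002).

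In WT no slope of the set was called, against 0.242% of all genes in either direction. By unadjusted p below 0.05, 11 of the 33 were below 0 with limma, against 11.4% of all genes, and 9 with edgeR, against 12.6%, and edgeR called none either. The 4 times do not lie on a line in WT: with 0 and 1 h only 15 of the 33 were called below 0, against 25.5% of all genes, with 0, 1 and 2 h 11, against 19.9%, and with 0 and 3 h 10, against 16%. In 8 of 33 genes both WT libraries at 3 h lay above both at 1 h, and in 4 both lay below, against 24.7% and 11.3% of 13620 genes. In A5-KO, 17 of 33 lay below at 3 h, against 45.7% of all genes.

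At 3 h, 23 of the 33 genes had both A5-KO libraries below both WT libraries, against 46% of all genes. Among them were *TOB1* (13.1 and 11.6 against 22.8 and 28.3 CPM), *TOB2* (16.9 and 11.0 against 44.3 and 37.4 CPM) and *DDX6* (35.1 and 30.1 against 71.4 and 70.0 CPM). *CNOT4* was at 3.64 and 2.94 CPM against 7.10 and 11.1 CPM. In these 4 genes the WT level at 3 h was more than 1.5 times that of A5-KO in any pairing of libraries. The same held for *CNOT2*, *CNOT6L*, *DCP1A* and *DCP1B*, and the share of all genes with such a gap was not computed.

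Half-lives, from a line through each replicate's own 0 h value, could be given for the 23 genes that fell in all 4 series of libraries. A series joins libraries of the same replicate number across the times, which the labels do not pair. The half-lives and the counts by series below rest on that joining. They are relative to the library total. *DCP1B* had 2.02 and 6.01 h in WT against 1.25 and 1.37 h in A5-KO, *TOB2* had 1.29 and 1.96 h against 1.03 and 0.973 h, and *DCP1A* had 2.88 and 4.06 h against 1.93 and 2.12 h. *CNOT6L* had 3.65 and 27.9 h in WT, which shows how little 2 libraries fix a shallow slope, and 1.39 and 2.09 h in A5-KO. The slope was steeper in both A5-KO series than in both WT series in 23 of 33 genes and in 45.3% of all genes.

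**Figure D4:**
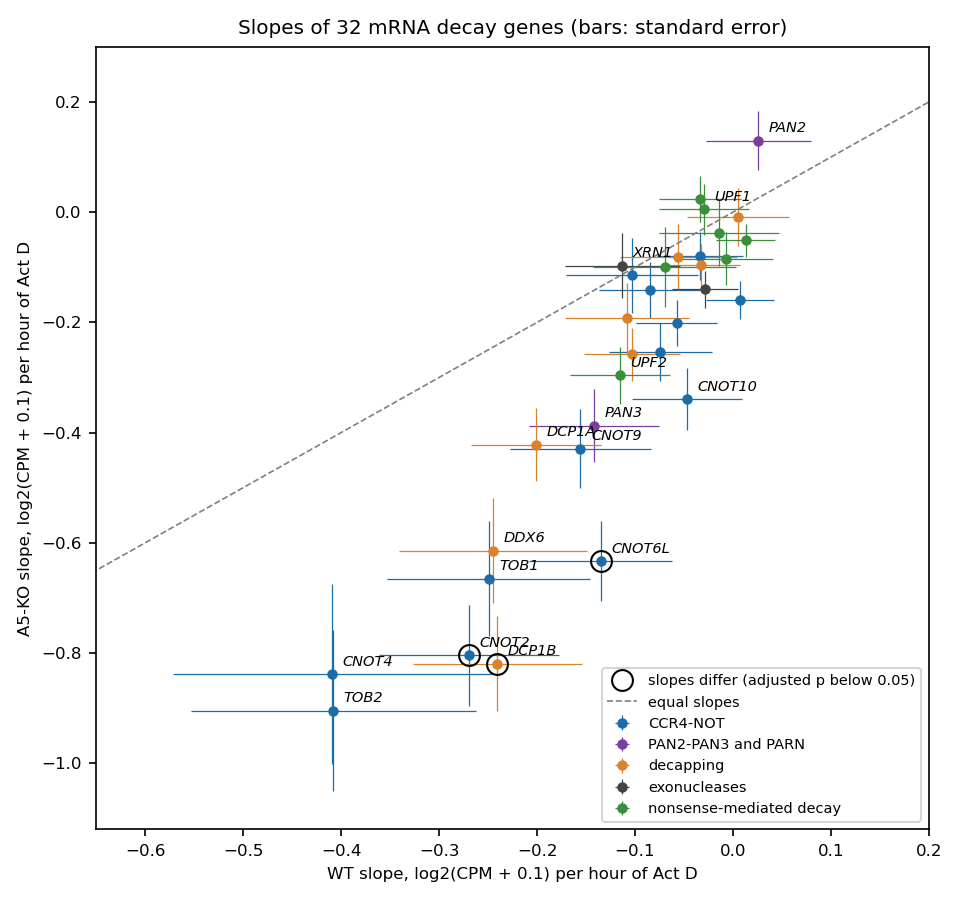
Slope in A5-KO against slope in WT for 32 of the 33 genes (*PARN* is left out for its spread), in log2(CPM + 0.1) per hour of Act D, coloured by role, with standard errors as bars and equal slopes as the dashed line. *CNOT2*, *CNOT6L* and *DCP1B* are ringed, the points at the lower left lie below the line, and those of nonsense-mediated decay other than *UPF2* lie near 0 on both axes.

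The difference between the slopes was called in 3 genes, all steeper in A5-KO, against 2.61% of 13620 genes lower, and in none the other way, against 0.0661%. *DCP1B* (chromosome 12, 1946053 to 2004535, minus strand) differed by −0.58 ± 0.12 per hour (SE, adjusted p = 0.037, limma), *CNOT2* (chromosome 12, 70243002 to 70354993, plus strand) by −0.54 ± 0.13 (adjusted p = 0.045) and *CNOT6L* (chromosome 4, 77713387 to 77819615, minus strand) by −0.50 ± 0.10 (adjusted p = 0.037). By unadjusted p below 0.05 there were 16 genes, all lower, against 20% of all genes lower, and 29 of 33 estimates lay below 0, as did 68.4% of all genes. The median difference was −0.14 for the 33 genes and −0.07 for all genes.

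These 3 calls sit close to the threshold. edgeR on the recovered reads called the same 3 genes, and with median-of-ratios scaling *DCP1B* alone passed. None passed with all genes kept in the fit or with the replicate number as a block. Leaving out 1 library gave between 0 and 8 calls, with 0 in 12 of 16 cases and 8 without WT 0 h replicate 1. With the 0 and 3 h libraries alone, 16 of 33 genes were called steeper in A5-KO, against 19.9% of 13740 genes, and with 0 and 1 h or with 0, 1 and 2 h none was.

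In the comparison of 0 and 3 h alone the 16 genes were 10 of the CCR4-NOT group (*CNOT2*, *CNOT4*, *CNOT6L*, *CNOT7*, *CNOT8*, *CNOT9*, *CNOT10*, *CNOT11*, *TOB1* and *TOB2*), *PAN3*, *DCP1A*, *DCP1B*, *DDX6*, *XRN2* and *UPF2*. The change over 3 h was lower in A5-KO by 1.79 for *DCP1B*, by 1.64 for *CNOT2* and by 1.48 for *CNOT6L* on the log2 scale. These calls rest on the 3 h libraries, in which the summed level of the 6 liver genes was 1152 and 1312 CPM in WT against 2000 and 1895 CPM in A5-KO. The part of that difference in the result was not tested.

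To place the steepest genes against sequence features linked to turnover, the first 500 bases after the stop codon of the MANE Select transcript (GENCODE v44, GRCh38) were searched on the mRNA strand. The window existed for 27 of 33 genes and for 13150 of all 19061 transcripts. The AU-rich pentamer ATTTA was in 14 of 27 (51.9%) and in 53.5% of all. The nonamer TTATTTATT, which contains that pentamer, was in none and in 2.56% of all. The Pumilio motif TGTANATA was in 3 (11.1%) and in 9.46% of all, and GGACT, a common m6A core, was in 7 (25.9%) and in 38.9%. The shares of pentamer and Pumilio motif were thus near those of all transcripts. Of the 7 steepest genes in A5-KO, *DCP1B* has a 3′ UTR of 153 bases and no full window and *DDX6* holds no pentamer. *CNOT2*, called for the slope difference, holds 1 pentamer, 243 bases after the stop codon, which is not printed. The first pentamer of *TOB2*, *CNOT4*, *TOB1* and *CNOT6L* is shown in capitals with its surroundings, since these are 4 of the 7 steepest mRNAs, of which *CNOT6L* was also called for the slope difference:
*TOB2* (chr22:41436077-41436106, minus strand, 217 bases after the stop codon): caccggcctgtgATTTAtttggttggtttg
*CNOT4* (chr7:135362454-135362483, minus strand, 414 bases after): aaaaccaggttcATTTAcgtgagattgcta
*TOB1* (chr17:50862734-50862763, minus strand, 229 bases after): gcctcttacagtATTTAagatatagcaagg
*CNOT6L* (chr4:77720199-77720228, minus strand, 215 bases after): tacaaaattttaATTTAacatgtttttaaa
*TOB1* held 4 pentamers, the most of any gene of the set, and the other three shown held 1 each. A match is a description of letters and not a site of action.

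A further 60 genes of mRNA decay were read in the same fits, the exosome and Ski complex, further decapping and nonsense-mediated decay genes, and recruiters of deadenylases. In hILOs 1 of 59 tested was called, against the 4.09% of all genes called lower. It was *EXOSC5*, an exosome subunit, which fell by 1.07 ± 0.11 (SE, adjusted p = 0.014, limma), and it was not called with no filter or without any one of the 4 libraries. In PPs at 0 h 0 of 58 were called. In A5-KO 30 of 58 slopes were below 0, against 37.1% of all genes, and 3 above it, against 7.44%, those of *PABPC1*, *LSM4* and *LSM7*. The difference between the slopes was called in 5 of 58, all steeper in A5-KO, against 2.61% of all genes. None was called with no filter or in 14 of the 16 fits that left out 1 library, and 13 were called without WT 0 h replicate 1 or WT 2 h replicate 1. Among the 5 were *BTG1* (−0.92 ± 0.22 per hour, adjusted p = 0.043) and *BTG2* (−0.58 ± 0.13, adjusted p = 0.042), relatives of *TOB1* that bind CCR4-NOT, *PUM2* (−0.62 ± 0.14, adjusted p = 0.041), which recruits it to mRNAs, and *EXOSC3* (−0.40 ± 0.09, adjusted p = 0.041).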

How the data were processed

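RNA was sequenced from 4 hILO and 16 PP libraries. After fastp trimming and HISAT2 2.1.0 alignment to GRCh38, the authors deposited gene-level TPM from StringTie for hILOs. For PPs the authors deposited CPM without ERCC spike-ins; the read counter and annotation release are not given in the sources used here. Spike-in amounts were not used here. CPM values were whole multiples of 1 read in 100% of entries (within 0.1 read), which recovered the read counts.

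Genes with a mean of at least 1 were tested with limma 3.58.1 on log2(TPM + 1) or log2(CPM + 1) for genotype at each stage and on log2(CPM + 0.1) for Act D, as 1 line per genotype over 4 times (slopes) or 1 mean per genotype and time (first hour). A call needed a Benjamini-Hochberg adjusted p below 0.05 and, for genotype and first-hour changes within a genotype, 1.5-fold. With 2 libraries against 2, no exact permutation test of a single gene could reach 0.05. Alternatives were another pseudocount or filter, median-of-ratios scaling, edgeR 4.0.16, DESeq2 1.42.0 (run in R 4.3.3), other sets of times, a replicate block and each library left out. The fits were tested on simulated data. Replicates with the same number were not paired by the labels. The paper states that wells of each biological replicate came from a shared batch of cells. The counts of libraries without overlap and the sequence motifs were chosen after the values were seen, and the genes and lists with earlier results of these data known. All 33 genes are named; values per library are given for called genes and for the steepest and shallowest of each role. Some items are not reported here.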

Additional observations from a re-analysis of the deposited data

Results flagged for a closer look

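The slope per hour of Act D was called different between WT and A5-KO PPs, by the test of the difference itself (limma, adjusted p below 0.05), for *CNOT2* (−0.54), *CNOT6L* (−0.50) and *DCP1B* (−0.58). Each was steeper in A5-KO, and 2.61% of all 13620 genes were called in that direction. These calls sit close to the threshold. None passed with no filter or with the replicate block, and only *DCP1B* passed with median-of-ratios scaling. Groups of 2 libraries were too small to look for single libraries that stand apart. Over the more abundant genes, WT replicates differed by a median log2 of 0.20 at 2 h and 0.15 at 3 h. A5-KO replicates differed by 0.07 and 0.08 at those times. At 0 and 1 h the order was the other way, with 0.10 and 0.08 in WT against 0.13 and 0.15 in A5-KO. The fits used 1 spread for both genotypes.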

How the results depend on the processing

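The PP 0 h comparison and the first-hour difference had 0 called genes of the set under every alternative run. In hILOs the count of 2 lower became 1 with a mean of at least 5, 0 with no filter and 1 with the replicate block, and 0 to 1 with each library left out. The WT slope count of 0 became 15 with 0 and 1 h, 10 with 0 and 3 h and 11 with 0, 1 and 2 h. The A5-KO slope count of 0 higher became 1 with 0 and 3 h, 2 with edgeR and 2 with median-of-ratios scaling, and 0 to 1 with each library left out. The slope difference (3 lower) became 0 with 0 and 1 h, 16 with 0 and 3 h, 0 with 0, 1 and 2 h, 1 with median-of-ratios scaling, 0 with no filter, 0 with the replicate block, and 0 to 8 with each library left out. The first hour in A5-KO (11 lower) became 6 with edgeR and 6 with median-of-ratios scaling, and 7 to 14 with each library left out, the 7 without A5-KO 0 h replicate 1. With 0 and 1 h only, the slope difference of *DCP1B* turned to 0.041 and the A5-KO slopes of *CNOT8* and *CNOT11* turned to 0.114 and 0.073. The causes were not tested. Deviations of same-numbered libraries of WT and A5-KO correlated by −0.01 in hILOs and by 0.13, −0.01, −0.05 and −0.03 at 0 to 3 h in PPs. These values compare the genotypes within a time, so they cannot show whether a number ties libraries across times. With the block at PP 0 h, 8.41% of all genes were lower and 10.6% higher by limma adjusted p below 0.05 alone. Without it the shares were 2.05% and 2.16%. Whether the numbers pair the libraries is therefore not settled. The block moved no other count of calls of the set by over 1.5 times. At PP 0 h, with the block, genes of the set at unadjusted p below 0.05 went from 2 lower and 2 higher to 5 and 4, and 5 passed the adjusted p, though not 1.5-fold (*XRN1*, *TOB2* and *DCP1A* lower, *CNOT10* and *CNOT11* higher). The slope-difference count of the 60 other decay genes, 5, became 20 with 0 and 3 h, 3 with a pseudocount of 1, 0 with 0 and 1 h, with 0, 1 and 2 h, with no filter and with the block, and 0 to 13 with each library left out. Among values of called genes, 338 kept their side of the threshold, 58 lost it and 3 turned. Half-lives moved by over 1 SD of the replicates in 65 of 136 cases, and in 2 more the level did not fall under the alternative. By the fewest reads in any PP library, depth limits *PARN*, *DCP1B*, *CNOT4* and *CNOT6L* most, and TPM carries no depth.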

Other observations

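*PARN*, a poly(A)-specific ribonuclease, was at 13.7 to 15.5 TPM in the 4 hILO libraries but rested on few reads in PPs. The 16 PP libraries held between 0 and 325 of its reads, with 325 and 8 in the replicates of WT at 3 h and 0 and 55 in those of A5-KO at 3 h, so its slopes (−0.15 ± 0.47 in WT and −0.36 ± 0.47 in A5-KO, SE) carry no comparison.

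In the WT series *ALKBH5* itself was at 149 and 172 CPM at 0 h and 48.3 and 33.7 CPM at 3 h.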
